A study of Mus musculus with 7 samples.

Results

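The comparison described here set 3 colonies of mouse induced pluripotent stem cells (iPSCs) against 1 library of the mouse embryonic stem cell (ESC) line V6.5. The members were chosen by sample title: the colonies titled M, numbered 1 to 3, and the library titled V6.5, which make up 4 of the 7 libraries of the series. The other 3 libraries, iPSC colonies titled GC, served to estimate the spread and are named only where a result turns on them. All 54838 genes of the count table were taken, of which 20502 had enough reads to be tested.

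Per the labels, the colonies began as splenic germinal center (GC) B cells of male mice injected with SRBC, here 9 days earlier. The B cells were sorted as B220+ CD38- Fas+, and taken as a whole or by Myc-GFP, a reporter of cells that received help from T follicular helper cells. The titles leave M unexplained, and this source is taken to be Myc-GFP, since bulk GC cells are the only other source described. Sorted cells were held for 6 days with cytokines on mouse embryonic fibroblasts, a feeder layer, and reprogrammed for 10 days with doxycycline (Dox), a drug that switches on the reprogramming genes. Each colony is 1 picked clone, grown 4 days without Dox, passaged once on gelatin and freed of feeders by pre-plating for 45 min. All cultures, ESC included, grew in KO-DMEM with FBS and the pluripotency cytokine LIF. The labels give neither the reprogramming transgenes, nor the age, strain and donor of the mice, nor a pre-plating step for ESC. Cell line, strain, derivation and passage therefore cannot be told apart in any difference below, and each p-value measures spread between these colonies only.

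Mouse pluripotent cells range from a naive state, like the inner cell mass, to formative and primed states, like the epiblast after implantation. Oct4 (encoded by Pou5f1), Sox2 and Nanog hold the network together, and factors such as Esrrb, Klf2, Klf4 and Prdm14 sustain its naive form. Cultures in serum and LIF are mixed and can hold rare cells that resemble the 2-cell embryo or the primitive endoderm, the layer that forms the yolk sac.

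Libraries differed on the Y chromosome in a way the groups do not explain, and on chromosome 8 between ESC and the colonies. Counts of Ddx3y, a helicase gene on the Y chromosome, were 382 in ESC and 1628, 0 and 0 in M colonies 1 to 3. Eif2s3y, a Y-linked translation factor gene, had 200 counts in ESC and 2040, 0 and 0 in the colonies, and Uty, a Y-linked demethylase gene, had 158, 624, 0 and 0. M colonies 2 and 3 therefore lacked Y transcripts that M colony 1 held, while ESC had them at a lower level than M colony 1. Where 0 was counted, a level of up to 3 counts is possible, equal to 0.0898 CPM in M colony 2 and 0.0951 CPM in M colony 3, for counting error only. Genes of chromosome 8 were lower in all 3 colonies than in ESC, as given with the chromosomes below. Totals ran from 31139508 counts in ESC to 33173123 in M colony 2, so depth differed little between the 4 libraries. Levels here are CPM, counts divided by the size of the library, scaled by TMM, which sets the libraries to a common middle.

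The pluripotency label held in all 4 libraries: the summed level of 9 defining genes was 7415 CPM in ESC and 5618, 5980 and 5551 CPM in M colonies 1 to 3, with none at 0. The summed level of 6 defining genes of primitive endoderm was 68.2 CPM in ESC and 482, 322 and 540 CPM in the colonies. That of 9 fibroblast markers was 393 CPM in ESC and 778, 657 and 593 CPM in the colonies, with 1 marker, Lum, at 0 in M colony 2. The 8 B cell markers summed to 10.2 CPM in ESC and to 8.56, 8.38 and 7.57 CPM in the colonies, and 3, 2, 2 and 3 of them were at 0 in these libraries. Colonies thus held more RNA of endoderm and fibroblast markers than ESC, and not of B cell markers. These are bulk libraries, in which more cells of a type and more RNA per cell cannot be told apart.

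Across all genes, the M colonies differed from ESC in both directions, and which direction held more genes depended on the test. Of 20502 genes tested, 1813 rose in the colonies (8.84%) and 1510 fell (7.37%), by the quasi-likelihood test of edgeR at an adjusted p under 0.05. Of the called genes 54.6% had thus risen, whereas limma-voom called 1254 risen and 1514 fallen (45.3% risen), so the balance turned with that test. The median log2 change of all genes tested was 0.02. Beyond the test, 624 called genes (3.04%) had their nearest colony at least 2-fold above ESC, and 172 (0.839%) had it at least 2-fold below. In M colony 1, 1644 genes lay at least 2-fold from ESC, in M colony 2 1332 and in M colony 3 1616. M colony 2 was the nearest to ESC by this count. All 3 colonies shared 624 of the genes at least 2-fold higher and 174 of those at least 2-fold lower, whereas 631 and 525 were so in 1 colony only. Between colonies, 188 genes lay at least 2-fold apart in M colonies 2 and 3, 249 in M colonies 1 and 2, and 341 in M colonies 1 and 3. With 1 ESC library, that library was assumed to vary like the colonies, and how a second ESC culture would vary is not known here.

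The widest gaps between ESC and the nearest colony were in keratins, growth factors and endocytic or transport genes. Krt18, a filament gene of simple epithelia (chromosome 15 from 102028180 to 102032027, GRCm38), was 23.7 CPM in ESC and 244, 242 and 304 CPM in M colonies 1 to 3. Krt8, which encodes its filament partner (chromosome 15 from 101996698 to 102004482), was 48.7 CPM in ESC and 371, 336 and 399 CPM in the colonies. The groups did not overlap for either keratin, and the nearest colony was 10.2-fold above ESC for Krt18 and 6.90-fold above for Krt8. By edgeR, Krt18 rose by 3.48 ± 0.16 (SE) on the log2 scale (adjusted p = 3.72e-08) and Krt8 by 2.92 ± 0.12 (adjusted p = 3.09e-08). Igf2, an imprinted fetal growth factor, was 0.838 CPM in ESC and 12.3, 15.5 and 13.5 CPM in the colonies. Bmper, a secreted modulator of BMP signals, was 0.536 CPM in ESC and 14.8, 8.86 and 11.2 CPM in the colonies. Slco2a1, a prostaglandin transporter gene, was 5.16 CPM in ESC and 110, 51.3 and 97.9 CPM in the colonies. The colonies of these 3 genes all lay above ESC, with M colony 2 lowest for Bmper and Slco2a1 and highest for Igf2.

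The other 7 genes of this group that rose were Lrp2, Nrk, Hs3st1, Car4, Hkdc1, Bmp2 and Nxf7. Lrp2 encodes megalin, a large endocytic receptor, and was 35.1 CPM in ESC and 373, 260 and 438 CPM in the colonies. Bmp2, a BMP ligand, was 0.804 CPM in ESC and 15.1, 7.85 and 14.8 CPM in the colonies. Car4, which encodes a carbonic anhydrase of the cell surface, was 7.87 CPM in ESC and 56.4, 56.5 and 89.3 CPM in the colonies. For Lrp2 and Bmp2, M colony 2 again lay below the other two, yet 7.41-fold and 9.76-fold above ESC. Over the 12 genes with the widest gap upward, edgeR gave log2 changes from 2.92 (Krt8) to 4.43 (Bmper).

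Falls of this size were fewer and smaller. Mid1, which encodes a ubiquitin ligase bound to microtubules (chromosome X from 169685199 to 170005736), was 28.1 CPM in ESC and 3.27, 1.74 and 1.62 CPM in the colonies. It fell by 3.67 ± 0.24 (SE) on the log2 scale (edgeR adjusted p = 9.69e-07), and the nearest colony was 8.59-fold below ESC. The GC colonies, at 28.7 ± 1.3 CPM (SD, n = 3), stood near the ESC level, and the M colonies differed from them too (edgeR adjusted p = 2.11e-07). Gm15726, an RNA annotated on the other strand inside Mid1, had 76 counts in ESC and 3, 2 and 1 in the colonies. Reads of overlapping genes may be shared, because the sources used here do not give the strand setting. Tcl1, which encodes a co-activator of the kinase Akt, was 116 CPM in ESC and 31.5, 31.3 and 26.6 CPM in the colonies. Rpl29, a ribosomal protein gene with many near-identical copies and so an uncertain count, was 439 CPM in ESC and 109, 113 and 120 CPM in the colonies. Aqp3, a channel for water and glycerol, was 64.0 CPM in ESC and 14.9, 15.5 and 19.3 CPM in the colonies. The 3 colonies of these genes lay close together, with the nearest 3.69-fold, 3.64-fold and 3.32-fold below ESC.

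Further genes of this group were the myelin gene Mobp, the ion transport regulator gene Fxyd6, the peptide transporter gene Slc15a1, the sorting receptor gene Sorl1, the synaptic scaffold gene Dlgap3, Kank4 and Gm8994. Sorl1 was 144 CPM in ESC and 44.3, 49.6 and 44.1 CPM in the colonies. Over the 11 genes with a wide gap downward reported here, edgeR gave log2 changes from -1.65 (Sorl1) to -3.67 (Mid1). The plot of these 23 genes shows that ESC stood clear of all 3 colonies in each of them, which the way they were picked requires.

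**Figure D1:**
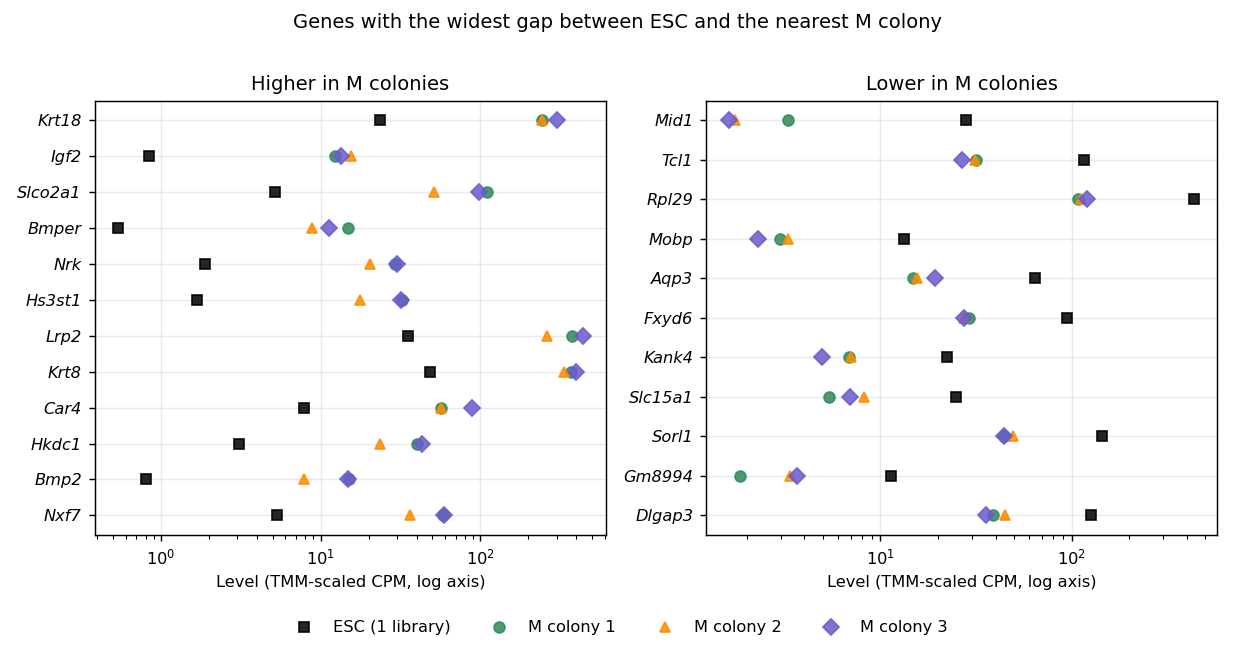
Level of the 12 protein-coding genes with the widest gap upward (left) and of 11 with the widest gaps downward (right) in ESC (black squares) and in each of the 3 M colonies, in TMM-scaled CPM on log axes, 1 point per library. Krt18 goes from 23.7 CPM in ESC to between 242 and 304 CPM in the colonies, and Mid1 from 28.1 CPM to between 1.62 and 3.27 CPM.

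Genes of core and naive pluripotency were lower in the colonies than in ESC. Of 47 tested members of this list, 25 fell, 3 rose and 19 did not pass, and 32 had all 3 colonies below ESC, as did 35.0% of all genes tested. The list's median log2 change was -0.38, beside 0.02 over all genes. Counts of this list and of those below stand beside 8.84% risen and 7.37% fallen over all genes tested. Of the 25 that fell, 23 lay on chromosomes other than 8. The number that fell was 23 without M colonies 2 and 3.

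Among the central factors, Pou5f1 was 660 CPM in ESC and 494, 502 and 478 CPM in M colonies 1 to 3. Sox2 was 506 CPM in ESC and 367, 403 and 349 CPM in the colonies. Nanog was 740 CPM in ESC and 375, 456 and 399 CPM in the colonies. Each lay below ESC in all 3 colonies, with log2 falls of -0.43 ± 0.07 for Pou5f1, -0.44 ± 0.09 for Sox2 and -0.85 ± 0.09 (SE) for Nanog. Their edgeR adjusted p was 0.00114 for Pou5f1, 0.00329 for Sox2 and 4.54e-05 for Nanog. Counts per gene do not separate RNA of a transgene from that of the cells' own Pou5f1, Sox2, Klf4 or Myc, so a part of transgene RNA in these levels was not tested.

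Factors that sustain the naive state also fell, Klf2 and Prdm14 by more than Nanog and Klf4 and Esrrb by less. Klf2, a Kruppel-like factor gene on chromosome 8, was 969 CPM in ESC and 404, 360 and 339 CPM in the colonies, a log2 change of -1.40 ± 0.10 (SE; edgeR adjusted p = 2.82e-06). Prdm14, which encodes a repressor of DNA methylation genes and of FGF signalling, was 48.9 CPM in ESC and 14.4, 23.9 and 17.8 CPM in the colonies (log2 change -1.39 ± 0.20). Klf4 was 788 CPM in ESC and 471, 572 and 508 CPM in the colonies, and Esrrb, an orphan nuclear receptor gene, was 666 CPM and 359, 453 and 419 CPM. All 4 genes lay below ESC in each colony, and M colony 2 was the nearest to ESC for Prdm14, Klf4 and Esrrb. Lin28a, which encodes an RNA-binding inhibitor of let-7 microRNAs, moved against the list. It was 217 CPM in ESC and 385, 355 and 373 CPM in the colonies. It rose by 0.77 ± 0.08 (SE) on the log2 scale (edgeR adjusted p = 4.55e-05).

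Zfp42, the gene of the naive marker Rex1, which lies on chromosome 8, divided the colonies. It was 346 CPM in ESC and 442, 278 and 251 CPM in M colonies 1 to 3, so that M colony 1 lay above ESC and the other two below it. It did not pass the test (edgeR adjusted p = 0.824), and its log2 change of -0.10 became 0.36 without M colonies 2 and 3. Dppa3, a maternal factor gene that varies between cells in serum, was 12.3 CPM in ESC and 17.9, 12.4 and 12.9 CPM in the colonies and did not pass.

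Genes of the formative and primed states were higher. Of 29 tested members 19 rose, 2 fell and 8 did not pass, with a median log2 change of 0.59. The 2 that fell were 1 when any single M colony, GC colony 1 or GC colony 2 was left out. Fgf5, an epiblast growth factor gene, was 0.268 CPM in ESC and 10.5, 3.08 and 7.19 CPM in the colonies. Cer1, a secreted inhibitor of Nodal and BMP, was 0.134 CPM in ESC and 2.90, 2.04 and 3.36 CPM in the colonies. Grhl2, an epithelial transcription factor gene, was 5.96 CPM in ESC and 30.2, 22.1 and 21.9 CPM in the colonies. Each lay above ESC in all 3 colonies, and the colonies of Fgf5 spread widely, from 11.5-fold to 39.0-fold. The formative factor gene Otx2 was 18.1 CPM in ESC and 33.4, 24.5 and 31.3 CPM in the colonies, and rose by 0.72 ± 0.16 (SE; edgeR adjusted p = 0.00866).

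Among genes of DNA methylation, 28% rose, beside 8.84% of all genes tested, while the list's median lay near that of all genes. Dnmt3b, a de novo methyltransferase gene that is in the formative list too, was 105 CPM in ESC and 418, 295 and 374 CPM in the colonies, a log2 rise of 1.78 ± 0.15 (SE; edgeR adjusted p = 9.63e-06). Dnmt3l, which encodes its non-catalytic partner, was 278 CPM in ESC and 426, 400 and 418 CPM in the colonies. Tet3, an enzyme that oxidizes methylated DNA, was 9.45 CPM in ESC and 19.13, 19.9 and 21.3 CPM in the colonies. The colonies of all 3 genes lay above ESC, and those of Dnmt3l and Tet3 lay close together. Of the 25 genes of DNA methylation tested 7 rose, 0 fell by edgeR at this threshold and 18 did not pass, and the median log2 change was 0.03. With 1 library left out, 1 member fell (M colony 2 or GC colony 1) or 2 fell (GC colony 3), and 2 fell with M colony 1 as the only M library. Methylation itself was not measured.

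Genes of the 2-cell-like state, which a few cultured cells enter and which recalls the early cleavage embryo, were higher in the colonies. Of 47 tested members 34 rose, 2 fell and 11 did not pass, with a median log2 change of 1.67, and 29 rose and 0 fell by edgeR without M colonies 2 and 3. The 2 that fell were 1 without M colony 3 or without GC colony 2. Zscan4d, a zinc finger gene that marks such cells, was 19.5 CPM in ESC and 69.0, 96.7 and 77.7 CPM in the colonies. Usp17lb, a deubiquitinase gene, was 1.27 CPM in ESC and 7.09, 10.8 and 9.86 CPM in the colonies, and Ubtfl1, a gene of the preimplantation embryo, was 0.737 CPM and 3.61, 5.51 and 4.69 CPM. M colony 2 was the highest of the 3 for each of them, and the lowest colony was 3.53-fold, 5.57-fold and 4.89-fold above ESC. Zscan4d rose by 2.05 ± 0.17 (SE) on the log2 scale (edgeR adjusted p = 7.98e-06). The Zscan4, Usp17l and Tdpoz families hold near-identical copies, which makes the count of each single member uncertain.

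Primitive endoderm was the list with the largest median difference of the 28. Of 33 tested members 29 rose, 0 fell by edgeR and 4 did not pass, and the median log2 change was 2.54. In 32 of the 33 all 3 colonies lay above ESC, as they did for 34.7% of all genes tested. The median with 0.5 CPM added was 2.60 in M colony 1, 1.90 in M colony 2 and 2.62 in M colony 3. Without M colonies 2 and 3, 30 rose.

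The transcription factors of the lineage rose together with its surface and secreted proteins. Gata6, a factor that starts the lineage, was 9.31 CPM in ESC and 56.6, 34.9 and 57.5 CPM in M colonies 1 to 3. Sox17, which stabilizes it, was 2.28 CPM in ESC and 21.2, 10.8 and 23.1 CPM in the colonies. M colony 2 was the lowest colony for both factors, at 3.75-fold and 4.76-fold above ESC. Foxq1, a forkhead factor gene, was 2.01 CPM in ESC and 19.7, 13.8 and 20.6 CPM in the colonies. Srgn, which encodes a proteoglycan of secretory granules, was 15.0 CPM in ESC and 145, 96.4 and 163 CPM in the colonies. By edgeR the log2 rise was 2.41 ± 0.29 for Gata6 (adjusted p = 1.07e-04), 3.01 ± 0.43 for Sox17 (adjusted p = 3.76e-04) and 3.35 ± 0.26 (SE) for Lrp2 (adjusted p = 3.54e-06). Fibroblast markers were also higher in the colonies and share no gene with this list. Their summed level was highest in M colony 1, whereas that of the endoderm markers was highest in M colony 3, and their part in this result was not tested.

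**Figure D2:**
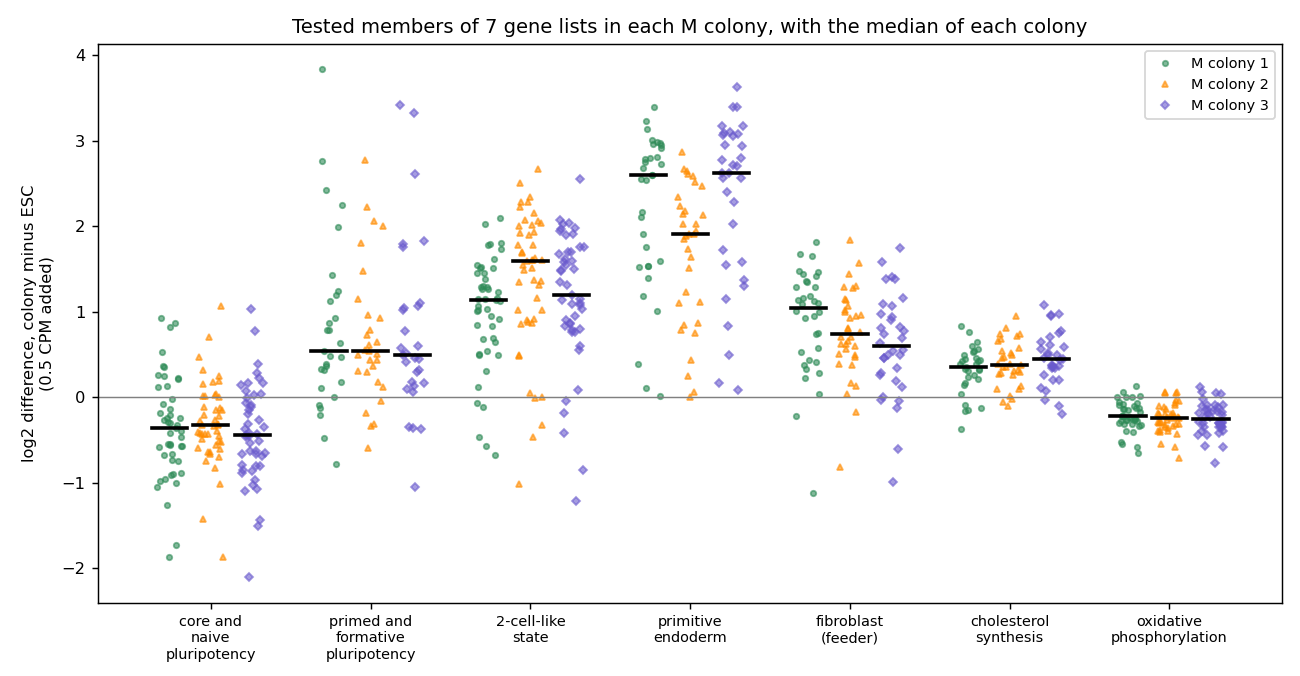
Log2 difference from ESC (CPM with 0.5 added) of the tested members of 7 gene lists in each M colony, 1 point per gene and colony, with a black bar at the median of each colony. The primitive endoderm medians are 2.60, 1.90 and 2.62 and the core and naive pluripotency medians -0.36, -0.33 and -0.45 in M colonies 1 to 3.

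Epithelial genes were higher beyond the 2 keratins already given. Of 39 tested genes of epithelial adhesion and keratins 19 rose, 4 fell and 16 did not pass, with a median log2 change of 0.41, and 2 fell without M colonies 2 and 3. Krt7, another keratin of simple epithelia, was 4.83 CPM in ESC and 25.2, 28.3 and 26.8 CPM in the colonies, a log2 rise of 2.47 ± 0.18 (SE; edgeR adjusted p = 2.54e-06). The trophoblast list, which marks the placental lineage, held 8 genes that rose, 1 that fell and 13 that did not pass among 22 tested. In all, 5 genes of the trophoblast list, the 4 keratins Krt7, Krt8, Krt18 and Krt19 and the cadherin gene Cdh3, are also in the epithelial list. Hand1, a factor of giant cells and of mesoderm, was 1.68 CPM in ESC and 10.6, 15.8 and 14.7 CPM in the colonies. Plac1, a placental gene, was 0.134 CPM in ESC and 2.45, 1.29 and 1.84 CPM in the colonies. Both lay above ESC in all 3 colonies, the lowest colony by 6.31-fold for Hand1 and 9.61-fold for Plac1.

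Many genes of the signalling pathways of the early embryo were higher in the colonies. Of 54 tested genes of Wnt, Nodal, BMP and FGF signalling 24 rose, 5 fell and 25 did not pass, with a median log2 change of 0.54. Bmp8b, a BMP ligand gene, was 1.01 CPM in ESC and 4.52, 7.76 and 7.13 CPM in the colonies. Wnt8a, a Wnt ligand gene, was 0.402 CPM in ESC and 1.93, 3.26 and 2.54 CPM in the colonies. Dkk1, a secreted Wnt inhibitor, was 1.21 CPM in ESC and 8.07, 5.09 and 8.49 CPM in the colonies. The colonies lay above ESC for all 3 genes, with M colony 2 highest for Bmp8b and Wnt8a and lowest for Dkk1.

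Markers of the germ layers changed less evenly. Of 25 tested mesoderm and definitive endoderm genes 9 rose, 0 fell by edgeR and 16 did not pass, with a median log2 change of 0.78. Without M colony 1, 2 members fell, and 1 fell without GC colony 3. Lhx1, a homeobox gene of gastrulation, was 0.670 CPM in ESC and 11.8, 6.89 and 8.71 CPM in the colonies, and Msx2, a homeobox target of BMP, was 1.07 CPM and 6.36, 6.86 and 7.80 CPM. Of 22 tested neuroectoderm genes 6 rose (27.3%, beside 8.84% of all genes tested), 3 fell (13.6%, beside 7.37%) and 13 did not pass. Of the 3 that fell, 2 lie on chromosome 8, which was lower as a whole. Meis1, a homeobox gene, was 1.74 CPM in ESC and 5.62, 5.03 and 5.83 CPM in the colonies, and rose by 1.66 ± 0.29 (SE; edgeR adjusted p = 0.00146). Pax6, a factor of neural and eye tissue, was 8.91 CPM in ESC and 3.67, 3.62 and 1.90 CPM in the colonies, and fell by 1.54 ± 0.30 (SE; edgeR adjusted p = 0.00374).

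Fibroblast genes, which feeder cells would bring along, were higher in the colonies. Of 34 tested members 22 rose, 1 fell and 11 did not pass, with a median log2 change of 0.86, and 21 rose without M colonies 2 and 3. Col1a1, the main fibrillar collagen gene, was 212 CPM in ESC and 408, 345 and 310 CPM in M colonies 1 to 3. Timp3, an inhibitor of matrix proteases, was 21.3 CPM in ESC and 76.1, 77.5 and 72.3 CPM in the colonies. Acta2, which encodes smooth muscle actin, was 109 CPM in ESC and 347, 322 and 283 CPM in the colonies. All lay above ESC in each colony. Col1a1 went down from M colony 1 to M colony 3, as did the 9 summed markers. It is 1 of those 9 and a large part of their sum, so the shared order is no separate result. By edgeR, Col1a1 rose by 0.75 ± 0.13 (adjusted p = 0.00136) and Timp3 by 1.82 ± 0.14 (SE; adjusted p = 3.20e-06) on the log2 scale. The ESC library itself held fibroblast RNA, and how much of the difference comes from feeders was not tested.

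No tested gene of B cell identity passed as higher in the colonies than in ESC, which never passed through a B cell. GC B cell genes were called in both directions. Of 18 tested genes of B cell identity 0 rose by edgeR, 3 fell and 15 did not pass, and 2 had all 3 colonies above ESC. Cd37, a B cell tetraspanin gene, was 18.9 CPM in ESC and 7.24, 8.65 and 6.91 CPM in the colonies, and fell by 1.31 ± 0.17 (SE; edgeR adjusted p = 1.68e-04). Pax5, the master regulator of B cells, was 0.871 CPM in ESC and 0.0611, 0.599 and 0.127 CPM in the colonies. It did not pass the test, and its levels in M colonies 1 and 3 lie near the floor of 3 counts. Among 21 tested GC B cell genes 3 rose (14.3%), 4 fell (19.05%) and 14 did not pass. Of them, 9 had all 3 colonies above ESC and 10 had them below. All genes tested stood at 8.84% risen and 7.37% fallen. The list's median log2 change was -0.16. The summed level of 4 GC B cell markers was 79.1 CPM in ESC and 61.9, 60.9 and 60.3 CPM in the colonies. Irf4, a factor of plasma cells and of GC selection, was 0.134 CPM in ESC and 1.53, 1.56 and 4.18 CPM in the colonies, a log2 rise of 4.14 ± 0.87 (SE; edgeR adjusted p = 0.00559). Efnb1, an ephrin gene on the X chromosome, was 7.24 CPM in ESC and 21.9, 20.3 and 20.5 CPM in the colonies. The sort markers Fas (0.938 CPM in ESC and 2.29, 1.59 and 1.78 CPM in the colonies) and Cd38 (9.48 CPM and 10.8, 11.4 and 10.6 CPM) did not pass. Bcl6, the GC regulator, did not pass either, at 4.22 to 5.69 CPM in the colonies beside 5.36 CPM in ESC.

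Imprinted genes were called in both directions. In the Dlk1-Dio3 cluster on chromosome 12, whose maternally expressed RNAs are silenced in some iPSC lines, 3 of 7 tested genes fell, 0 rose by edgeR and 4 did not pass. Rian was 270 CPM in ESC and 57.0, 30.4 and 38.0 CPM in M colonies 1 to 3, and Meg3 was 148 CPM in ESC and 45.3, 35.2 and 37.0 CPM. Mirg, which hosts microRNAs, was 8.04 CPM in ESC and 1.31, 0.779 and 1.52 CPM in the colonies. These 3 noncoding RNAs lay far below ESC in every colony and were still detected in each, with M colony 1 the highest for Rian and Meg3. The log2 changes were -2.69 ± 0.20 for Rian, -1.92 ± 0.15 for Meg3 and -2.74 ± 0.43 (SE) for Mirg, with edgeR adjusted p from 2.82e-06 to 6.60e-04. Dlk1, the protein-coding gene of the other allele, was 5.83 CPM in ESC and 5.50, 6.77 and 7.48 CPM in the colonies and did not pass. Among 55 other imprinted genes tested 12 rose, 6 fell and 37 did not pass, and 3 fell without M colony 3. The share that rose, 21.8%, stood above the 8.84% of all genes tested, and the share that fell, 10.9%, was near their 7.37%. H19, a noncoding RNA beside Igf2, was 31.5 CPM in ESC and 153, 147 and 210.2 CPM in the colonies, so that both genes of this domain, which are expressed from opposite alleles, rose. Peg10, a retrotransposon-derived gene needed for the placenta, was 195 CPM in ESC and 800, 614 and 766 CPM in the colonies, a log2 rise of 1.90 ± 0.14 (SE; edgeR adjusted p = 2.53e-06).

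Among germline genes that DNA methylation holds silent, more fell (25.7%, beside 7.37% of all genes tested) than rose (11.4%, beside 8.84%). Of 35 tested 9 fell, 4 rose and 22 did not pass, with a median log2 change of -0.18, and 2 rose without M colonies 2 and 3. Stra8, a gatekeeper of meiosis, was 42.0 CPM in ESC and 14.6, 17.6 and 12.99 CPM in the colonies, and Tuba3a, a testis tubulin gene, was 51.6 CPM and 24.5, 20.9 and 19.01 CPM. Stra8 fell by 1.48 ± 0.16 (SE; edgeR adjusted p = 4.88e-05), and all 3 colonies lay below ESC for both genes.

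Myc, the growth regulator whose reporter selected the starting B cells, was 7.14 CPM in ESC and 33.4, 31.9 and 35.3 CPM in M colonies 1 to 3. The colonies lay within a narrow band, 4.47-fold to 4.95-fold above ESC, and the log2 rise was 2.23 ± 0.18 (SE; edgeR adjusted p = 5.48e-06). The GC colonies stood at 25.8 ± 3.2 CPM (SD, n = 3), and the difference between M and GC colonies did not pass (edgeR adjusted p = 0.0745), so that high Myc was not shown to be particular to the Myc-GFP source. Of 55 tested genes of Myc and its targets, mostly of ribosome biogenesis, 9 rose, 1 fell and 45 did not pass, with a median log2 change of 0.09. The shares were 16.4% risen and 1.82% fallen, beside 8.84% and 7.37% of all genes tested. The 4 called members with the largest change were Myc, Ccnd2, Mxd4 and Mxd3, none of them a gene of ribosome biogenesis. These shares thus describe the whole list and not ribosome biogenesis alone. Ccnd2, a cyclin gene of the list, was 20.5 CPM in ESC and 86.0, 56.8 and 69.7 CPM in the colonies. The number that fell, which was 1 here, was 3, 2 and 4 when M colony 1, M colony 3 or GC colony 3 was left out.

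Stress and immediate early genes were called in both directions. Of 22 immediate early genes, the first to answer a growth factor or handling, 8 rose (36.4%), 4 fell (18.2%) and 10 did not pass. Of the 4 that fell, 2 lie on chromosome 8. Fosl2, an AP-1 subunit gene, was 12.3 CPM in ESC and 36.4, 32.9 and 40.5 CPM in the colonies, and Atf3, a stress-induced factor gene, was 39.1 CPM and 126, 73.4 and 109 CPM. Fosb, another AP-1 subunit gene, was 536 CPM in ESC and 526, 492 and 557 CPM in the colonies, with overlapping levels. Of 29 tested p53 genes 3 rose (10.3%, near the 8.84% of all genes tested), 5 fell (17.2%, beside 7.37%) and 21 did not pass, and 1 rose and 3 fell without M colonies 2 and 3. Pmaip1, which encodes the death protein Noxa, was 182 CPM in ESC and 89.6, 52.1 and 49.2 CPM in the colonies, and fell by 1.52 ± 0.22 (SE; edgeR adjusted p = 3.73e-04). Among 33 tested genes of the integrated stress response, which respond to amino acid shortage, 12 fell, 2 rose and 19 did not pass, and 7 fell without M colonies 2 and 3. Asns, which encodes asparagine synthetase, was 695 CPM in ESC and 413, 454 and 399 CPM in the colonies, and Shmt2, a mitochondrial enzyme of serine breakdown, was 447 CPM and 277, 295 and 276 CPM. The 2 members of this list that rose were 1 or 0 when any 1 M colony, GC colony 1 or GC colony 2 was left out.

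Among genes of energy metabolism more fell than rose, and the reverse held for genes of sterol synthesis. Of 40 tested nuclear genes of oxidative phosphorylation 11 fell, 0 rose by edgeR and 29 did not pass, with a median log2 change of -0.25, and 33 had all 3 colonies below ESC, as did 35.0% of all genes. Sdhb, a subunit of succinate dehydrogenase, was 152 CPM in ESC and 95.9, 92.0 and 88.3 CPM in the colonies, and Cox5a, a cytochrome oxidase subunit gene, was 115 CPM and 79.8, 78.2 and 77.2 CPM. The number that fell was 6 with M colony 2 left out, 5 with M colony 3 left out, 4 with neither of them, 6 with GC colony 2 left out and 18 with GC colony 3 left out, so the count rests on single libraries. Of 35 tested glycolysis and hypoxia genes 9 fell, 3 rose and 23 did not pass, with a median log2 change of -0.19. Without GC colony 3, 14 fell. Hk1, a hexokinase gene, was 206 CPM in ESC and 108, 124 and 114 CPM in the colonies, and Pfkp, a phosphofructokinase gene, was 750 CPM and 413, 517 and 432 CPM. Of 31 tested cholesterol synthesis genes 17 rose, 0 fell by edgeR and 14 did not pass, with a median log2 change of 0.41, and 8 rose without M colonies 2 and 3. Idi1, an isomerase of the pathway, was 22.8 CPM in ESC and 40.8, 40.4 and 44.3 CPM in the colonies, and Cyp51, a sterol demethylase gene, was 75.3 CPM and 128, 126 and 146 CPM. No member of this list had its nearest colony at least 2-fold from ESC.

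Interferon genes were called in both directions, and genes of antigen presentation upward. Of 44 tested interferon response genes 11 rose, 6 fell and 27 did not pass, and 7 rose without M colonies 2 and 3. Gbp2, a guanylate-binding protein gene, was 4.05 CPM in ESC and 19.3, 16.2 and 17.2 CPM in the colonies, a log2 rise of 2.12 ± 0.19 (SE; edgeR adjusted p = 1.13e-05). Of 27 tested genes of MHC class I antigen presentation 10 rose, 0 fell by edgeR and 17 did not pass, with a median log2 change of 0.51, and 7 rose without M colonies 2 and 3. Psmb8, an immunoproteasome subunit gene, was 0.402 CPM in ESC and 2.32, 1.77 and 2.25 CPM in the colonies. Erap1, a peptide trimming enzyme, was 1.94 CPM in ESC and 7.52, 6.20 and 6.15 CPM in the colonies, and B2m, the light chain of MHC class I, was 23.3 CPM and 39.0, 34.4 and 38.8 CPM. The colonies lay above ESC for all 3 genes. MHC genes differ between mouse strains and have close copies, so their counts are uncertain, and strain cannot be told apart from the comparison.

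**Figure D3:**
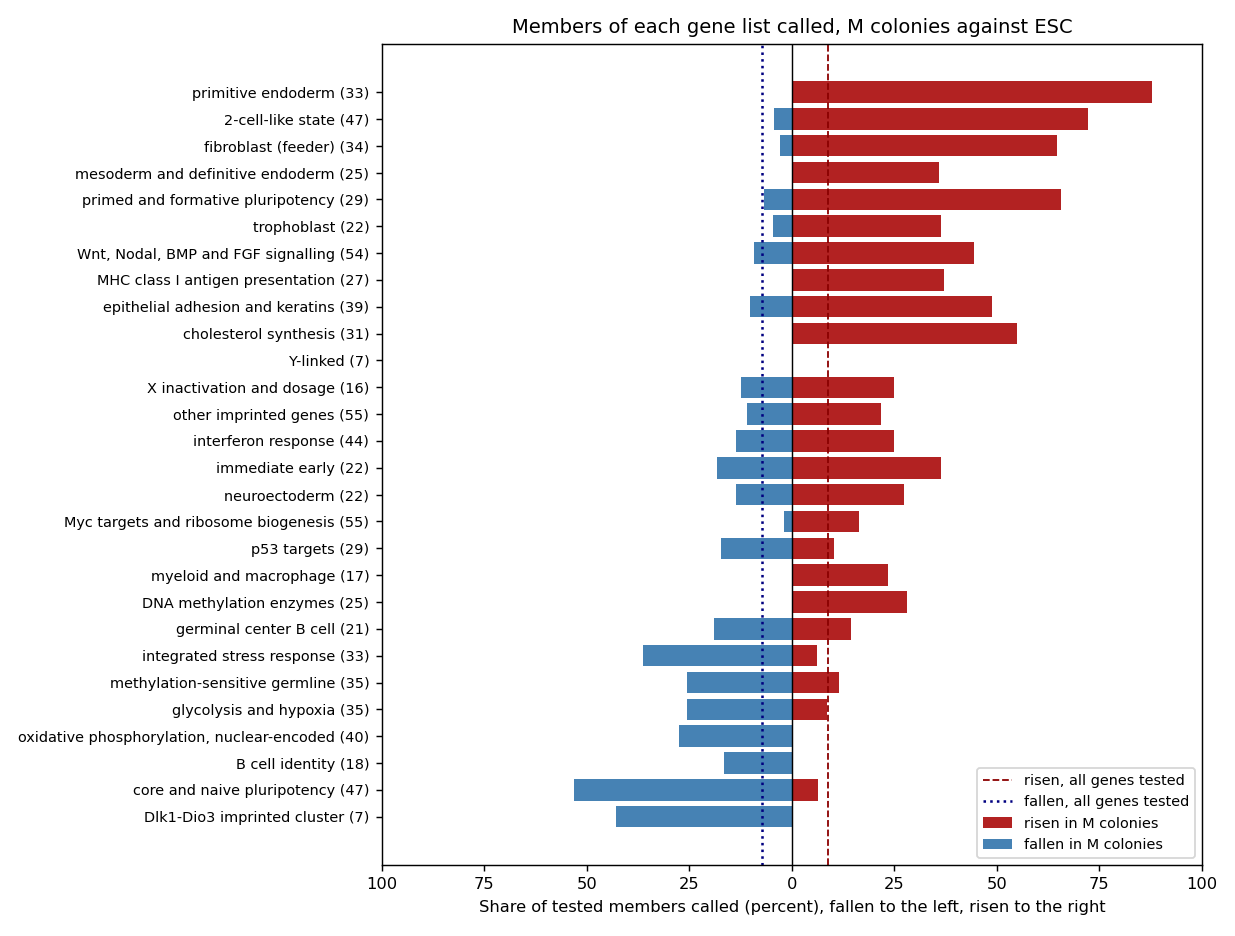
Share of the tested members of each of 28 gene lists (number tested in brackets) that rose (red, to the right) or fell (blue, to the left) in M colonies against ESC, in percent, with the shares over all genes tested as broken lines (8.84% risen, 7.37% fallen), sorted by the list's median log2 change. Primitive endoderm stands at the top with 87.9% risen, and core and naive pluripotency near the bottom with 53.2% fallen.

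Chromosome 8 stood apart from the other autosomes in every colony. Over its 814 tested protein-coding genes the median log2 difference from ESC was -0.24, -0.28 and -0.27 in M colonies 1 to 3, whereas those of the other autosomes lay between -0.06 and 0.08. Of these genes 224 fell (27.5%) and 38 rose (4.67%), while 8.28% of 14701 protein-coding genes on the other chromosomes fell. In 63.3% of the chromosome 8 genes all 3 colonies lay below ESC. The colonies thus stood at about 0.833 times the ESC level across this chromosome, and the GC colonies had medians of -0.25 to -0.27 as well. The comparison shares its 1 ESC library, so this sets ESC against all 6 colonies and does not show which side is the usual one. The X chromosome lay at 0.20, 0.15 and 0.17, with 115 of 556 genes risen (20.7%), and its median was 0.09 among genes of at least 10 CPM. Xist, the RNA that coats an inactive X, was 8.41 CPM in ESC and 13.3, 12.6 and 10.9 CPM in the colonies and did not pass. DNA copy number was not measured, so its part in these differences was not tested.

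**Figure D4:**
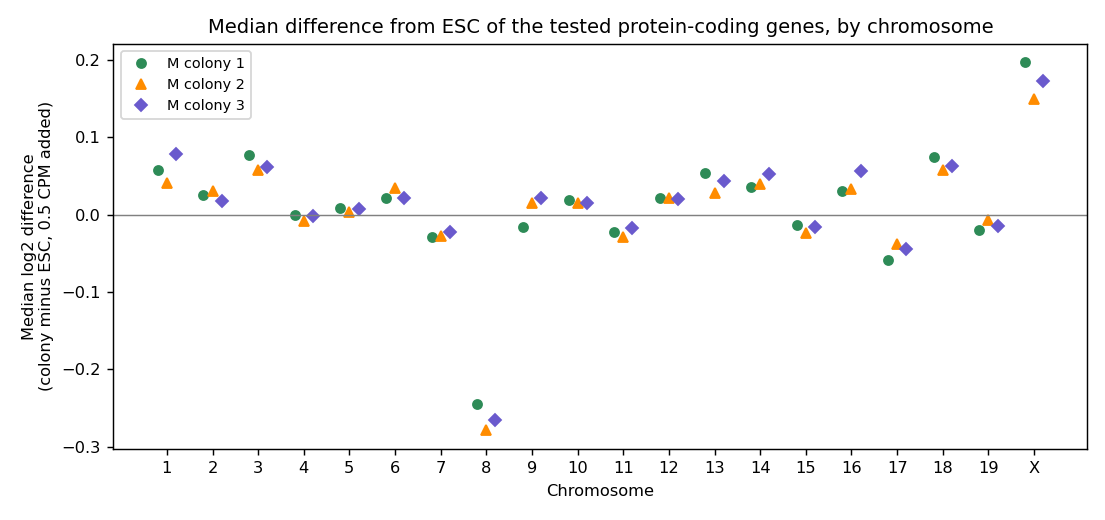
Median log2 difference from ESC (CPM with 0.5 added) over the tested protein-coding genes of each chromosome in each of the 3 M colonies, without the Y chromosome, which has few genes and is described by counts in the text. Chromosome 8 lies between -0.28 and -0.24 in the 3 colonies, and X between 0.15 and 0.20.

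A few genes were near silent on one side only. On genes had at most 3 counts in ESC and at least 1 CPM in every M colony, and there were 13, of which 11 were protein-coding. Off genes had at least 1 CPM in ESC and at most 3 counts in every M colony, and there were 5, of which 2 were protein-coding. These are descriptions by a count rule without a test, and they changed with it: with 0 counts allowed on the silent side there were 4 on and 1 off genes, and with 10 there were 78 and 13.

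Csf1r, the receptor gene for the macrophage growth factor CSF1, which trophoblast also expresses, had 0 counts in ESC and 121, 87 and 139 in the colonies, at least 35.3-fold higher against a floor of 3 counts in the ESC library. The summed level of 6 macrophage markers, which include it, was 30.5 CPM in ESC and 36.9, 35.9 and 41.9 CPM in the colonies, and their part in this result was not tested. Rbbp8nl had 0 counts in ESC and 68, 41 and 54 in the colonies, at least 16.6-fold higher, and Clca4a, a secreted protease gene of epithelia, had 3 and 94, 55 and 64. Gbp3, a guanylate-binding protein gene, had 2 counts in ESC and 81, 82 and 58 in the colonies, 33.8-fold higher (95% exact Poisson interval 9.24 to 281, for counting error only). Zfp36l3, an X-linked RNA-binding gene of rodent placenta, had 0 counts in ESC and 33, 57 and 40 in the colonies, at least 13.2-fold higher. Tcerg1l, a relative of a transcription elongation regulator, had 3 counts in ESC and 83, 46 and 51 in the colonies, 18.3-fold higher (6.17 to 89.7). All of them were low even where on, at 0.478 to 0.727 CPM per kilobase of exon on average over the colonies. The 2 on genes with the highest level per kilobase, Gm11784 and Gm9476, are pseudogenes with uncertain counts.

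The promoters of 3 of these genes are shown because CG sites are where DNA methylation acts. The genes were near silent in ESC, with 2 counts of Gbp3, 0 of Zfp36l3 and 3 of Tcerg1l, and low in the colonies. Methylation itself was not measured. Sequences are from RefSeq on GRCm38.p6, from 250 bases before to 50 after the start, 5′ to 3′ on the gene's strand, with CGs in capitals. Gbp3 lies at chr3:142559794-142560093 on the plus strand. Zfp36l3 lies at chrX:53776345-53776644 on the minus strand. Tcerg1l lies at chr7:138397681-138397980 on the minus strand.
Gbp3: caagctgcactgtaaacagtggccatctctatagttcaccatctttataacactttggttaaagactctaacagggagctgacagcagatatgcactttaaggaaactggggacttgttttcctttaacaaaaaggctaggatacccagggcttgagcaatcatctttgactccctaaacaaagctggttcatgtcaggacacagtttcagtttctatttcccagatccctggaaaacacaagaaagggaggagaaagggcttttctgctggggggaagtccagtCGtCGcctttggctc
Zfp36l3: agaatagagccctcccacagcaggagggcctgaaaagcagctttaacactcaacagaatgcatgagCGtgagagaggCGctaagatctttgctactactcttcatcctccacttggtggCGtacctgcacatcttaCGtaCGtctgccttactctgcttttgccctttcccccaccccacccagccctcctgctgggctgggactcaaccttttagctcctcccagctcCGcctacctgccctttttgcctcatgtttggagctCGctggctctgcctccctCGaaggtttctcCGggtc
Tcerg1l: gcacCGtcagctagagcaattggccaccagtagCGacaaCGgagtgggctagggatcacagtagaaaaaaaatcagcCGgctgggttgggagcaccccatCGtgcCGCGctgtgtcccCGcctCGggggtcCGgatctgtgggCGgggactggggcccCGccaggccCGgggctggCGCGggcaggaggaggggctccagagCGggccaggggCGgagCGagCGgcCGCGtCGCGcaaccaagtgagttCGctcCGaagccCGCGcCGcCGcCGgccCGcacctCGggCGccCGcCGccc

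The 3 promoters differ widely in CG content, with 2 CGs in Gbp3, 9 in Zfp36l3 and 35 in Tcerg1l. Of 32851 promoters of this length, with a median of 7 CGs, 23.3% hold as few as Gbp3 or fewer, 56.5% as few as Zfp36l3 or fewer and 93.8% as few as Tcerg1l or fewer. The on genes shown thus included promoters poor, middling and rich in CG, and this is a count of letters with no test. Clca4a, Rbbp8nl, Cox6a2 and Fam83a are not shown.

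Among the off genes, Gm18363, a processed pseudogene on chromosome 13, had 329 counts in ESC and 0 in each M colony, at least 116-fold lower against a floor of 3 counts per colony. The GC colonies held it at 7.84 to 10.6 CPM, near the 11.02 CPM of ESC, so that it was absent from M colonies only. Cox6a2, a muscle form of a cytochrome oxidase subunit, had 58 counts in ESC and 2, 0 and 0 in the colonies, 94.9-fold lower (95% exact Poisson interval 25.1 to 802). Fam83a, a signalling adaptor gene, had 30 counts in ESC and 2, 2 and 0 in the colonies, 24.6-fold lower (8.65 to 95.9). Gm18562, a pseudogene, had 35 counts in ESC and 1, 3 and 2 in the colonies.

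Sister colonies also differed from each other. Klhl13, an X-linked adaptor gene of a ubiquitin ligase, was 65.8 CPM in ESC and 266, 133 and 129 CPM in M colonies 1 to 3, so that M colony 1 stood at 4.04-fold and the other two near 2-fold. Zfp42, Pmaip1 and Klhl13 all placed M colonies 2 and 3 together and M colony 1 apart and higher, and these genes were singled out after their values were seen. Slco2a1, Sox17 and Bmp2 instead placed M colony 2 apart and lower. Of the 23 genes with the widest gaps, 13 also differed between M and GC colonies by edgeR, as did 3.46% of all genes tested, and these tests share the M libraries that picked the genes. M and GC colonies are set against the same ESC library, and their own values are given with the results that need a closer look.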

How the data were processed

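Poly-A RNA of 7 mouse cultures was read as 150-base pairs. The raw counts per Ensembl gene were deposited by the authors as whole numbers, not normalized. The submitters' processing notes name STAR 2.7.10a, featureCounts 2.0.6 and, without its version, DESeq2, on mm10 (GRCm38). The labels disagree on strandedness (non-stranded in the design text, a directional kit in the sample protocol) and on the sequencer, and how featureCounts treated strand is not given in the sources. Between 71.3% and 72.2% of counts under 50 were even in each library, so fragments may be fewer than counts. Intervals and floors cover counting error only. If fragments are fewer, the intervals are too narrow and the floors too low even for that.

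Names and positions came from GENCODE M21 on GRCm38, and 29 of 54838 genes did not match. Genes were filtered with filterByExpr, scaled by TMM and fitted in edgeR 4.0.16 (R 4.3.3) with a two-sided quasi-likelihood test, with M colonies minus ESC as the contrast. All 7 libraries in 3 groups entered the fit, which left 4 residual degrees of freedom. The adjusted p is Benjamini-Hochberg over all 20502 genes tested, with a threshold of 0.05. The SE of a log2 change follows from its F statistic (the change divided by the root of F). The same fit gave M minus GC colonies.

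The 28 lists (889 genes, 877 in the table) are described by counts and medians, without a set test. Named are the 12 protein-coding called genes in each direction with the widest log2 gap (0.5 CPM added) between ESC and the nearest colony, among those with a mean of at least 10 CPM on the higher side. Also named are up to 4 called members per list with the largest change and at least 1 CPM in some library, a fixed set, and the on and off genes with the highest level. A few genes that this rule picks are not reported here. The members and lists were chosen with earlier results of these data known. Scripts were tested on simulated data. Alternatives were DESeq2 1.42.0, limma-voom (limma 3.58.1), RLE size factors, no filter, a fit of 4 libraries, a replicate block, left-out colonies or chromosomes, and a threshold of 0.01.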

Additional observations from a re-analysis of the deposited data

Results flagged for a closer look

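For 19 genes with the widest gaps or of the fixed set, the M colonies' difference from ESC was not that of the GC colonies. For them the M minus GC term of the same edgeR fit passed the threshold. Genes named only by list or as on or off genes, such as Gm18363, are not in this count. Each value is a log2 difference, M minus GC colonies, and the ESC library cancels out of it. M colonies lay further above ESC than GC colonies for Krt18 (0.75), Igf2 (0.71), Nrk (0.69), Lrp2 (0.78), Krt8 (0.74), Car4 (0.65) and Nxf7 (0.63). They lay further below ESC for Tcl1 (-0.57), Mobp (-1.79), Aqp3 (-0.88), Fxyd6 (-0.66) and Sorl1 (-0.45). These genes were picked for the width of the gap in M colonies, which favours a larger gap there than in GC colonies, so the direction is no finding.

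Mid1 had the largest difference (-3.70), at 2.21 ± 0.92 CPM in M colonies, 28.7 ± 1.3 CPM in GC colonies (SD, n = 3 each) and 28.1 CPM in ESC. Peg10 (1.04) was 727 ± 99 CPM in M colonies and 353 ± 21 CPM in GC colonies, with ESC at 195 CPM. Pou5f1 (0.39) was 491 ± 12 CPM in M colonies and 374 ± 3 CPM in GC colonies, so that M colonies were nearer to the 660 CPM of ESC. Klf4 (0.40) was likewise nearer to ESC in M colonies, at 517 ± 51 CPM beside 392 ± 10 CPM in GC colonies. Otx2 (-0.85) and Zscan4d (-0.84) rose less far above ESC in M colonies, to 29.7 ± 4.6 CPM beside 53.5 ± 2.3 CPM for Otx2 and to 81.1 ± 14.2 CPM beside 145 ± 9 CPM for Zscan4d. Fosb (0.38) was 525 ± 32 CPM in M colonies, near the 536 CPM of ESC, and 404 ± 27 CPM in GC colonies. Transgene RNA, donor and source cell cannot be told apart in these differences.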

How the results depend on the processing

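The number of genes called, 3323, ran from 2496 to 3935 when any 1 colony was left out, with 1453 to 2094 risen and 1043 to 1841 fallen. It was 3142 with the M colonies and ESC alone, 3484 with DESeq2, 2768 with limma-voom (1254 risen and 1514 fallen, the only setting with more fallen), 3305 with RLE size factors, 3818 without the filter, 2416 without M colonies 2 and 3, which leaves 1 M library assumed to vary like the GC colonies, and 2901 without chromosomes 8, X and Y. With the colony number as a replicate block it was 3596. The correlations of same-numbered GC and M colonies were 0.06, 0.06 and 0.13. Those of differently numbered colonies were all lower, from -0.10 to 0.04. The labels give no donor, so the main fit did not pair colonies by number, and whether same-numbered colonies share a donor or batch was not tested. The block moved no list count of at least 9 by over 1.5 times. At an adjusted p of 0.01, 1708 genes passed, 1004 risen and 704 fallen, and these counts became 4 risen (mesoderm and definitive endoderm), 7 risen (other imprinted genes), 4 fallen (germline), 4 risen (Myc targets), 5 fallen (glycolysis and hypoxia), 11 risen (cholesterol synthesis), 6 risen (interferon), 6 risen (MHC class I), 11 risen (epithelial) and 4 fallen (oxidative phosphorylation). Without M colonies 2 and 3 there were 7 fallen (integrated stress response), 8 risen (cholesterol synthesis), 7 risen (interferon) and 4 fallen (oxidative phosphorylation). The interferon count was 5 with limma-voom, and the oxidative phosphorylation count 17 without the filter and 5 to 18 over the left-out colonies. Glycolysis and hypoxia genes that fell ranged from 6 to 14 over the left-out colonies. With 0 or 10 counts allowed on the silent side there were 4 or 78 on genes and 1 or 13 off genes. The chromosome 8 median was -0.23 over all genes and -0.29 at 10 CPM or more, and that of X 0.14 and 0.089.

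Of 140 named genes called, 106 were called in every setting that tested them and 34 were lost in at least 1. The direction turned for 4 genes that were not called, and the cause was not tested beyond the colonies' own values. Zfp42 (-0.10) was 0.006 with M colony 2 left out, 0.06 with M colony 3 left out and 0.36 with neither, with -0.39 to 0.06 over the left-out colonies. Dlk1 (0.18) was -0.082 without M colonies 2 and 3, and Fosb (-0.03) was 0.016 without M colony 2, with -0.074 to 0.016 over the left-out colonies. Ddx3y (0.38) was -5.80 with limma-voom and -1.22 with the replicate block, with -11.7 to 0.96 over the left-out colonies.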

Other observations

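LincRNA genes and processed pseudogenes were called less often than protein-coding genes. Of 811 tested lincRNA genes 42 rose and 19 fell, and of 2031 processed pseudogenes 49 rose and 18 fell. Among 15515 protein-coding genes 1654 rose and 1441 fell. In both directions, the shares of lincRNA genes and processed pseudogenes lay below the 8.84% risen and 7.37% fallen of all genes tested. Not every smaller class was as low: of 158 unprocessed pseudogenes 13 rose and 4 fell, and of 12 polymorphic pseudogenes 2 rose and 0 fell. The part of low counts, which make a call harder to reach, was not tested.

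Gm47283, annotated at the end of the Y chromosome and singled out after its values were seen, had 4739 counts in ESC and 3420, 24 and 14 in M colonies 1 to 3. Its counts were low in the same 2 colonies that had 0 counts of Ddx3y, Eif2s3y and Uty.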
